A study of Mus musculus with 4 samples.

Results

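The genes of the proteasome were followed in mouse embryonic stem (ES) cells in which fibrillarin was knocked down. The members are all genes whose RefSeq symbol begins with Psma, Psmb, Psmc, Psmd, Psme, Psmf or Psmg and a number. The rule took 48 of the 17008 genes that the array probes could be matched to, measured by 67 probes. It also took Psmc3ip, a partner protein of meiotic recombination, and Psme3ip1, a protein that binds the Psme3 activator, which carry such a symbol but are not subunits; both were kept apart from the subunits. Another 9 symbols of the rule had no probe matched to them and were not analysed here: Psma8, Psmg4, Psme2b and 6 pseudogenes.

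The 4 samples were RNA from Tc-inducible FBL-knock down ES cells grown with leukaemia inhibitory factor (LIF), each hybridised to a 1-colour Agilent array. In the 2 control samples tetracycline (Tc, 1000 ng/mL) was present and FBL was expressed. In the 2 knock-down samples Tc had been withdrawn for 2 days. All samples came from the same engineered cells, so the controls carry the Tc-regulated construct too. Knock-down of fibrillarin cannot be told apart from the absence of Tc itself. The labels do not say whether the replicates were separate cultures, so the p-values cover only the variation among these arrays and may reflect technical spread. They also give neither the promoter of the construct nor whether the line is 1 clone. Both controls and knock-down replicate 1 shared a slide, and knock-down replicate 2 lay on another.

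Proteins marked with ubiquitin chains are destroyed by the 26S proteasome, a barrel-shaped 20S core capped by the 19S regulatory particle. The core is a stack of rings of alpha subunits (Psma), which form the gate, and rings of beta subunits (Psmb), which carry the peptide-cutting sites. The 19S particle recognises the chain, removes it, and unfolds and feeds in the substrate by means of a ring of ATPases (Psmc) with further lid and base subunits (Psmd). In immune cells and under interferon, the 3 catalytic beta subunits are exchanged for Psmb8, Psmb9 and Psmb10, giving the immunoproteasome, whose products feed antigen presentation. ES cells are known for a high proteasome activity, which falls as they differentiate.

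Levels are the deposited log2 signals, each set to 0 at its array's 75th percentile, so most probes lie below 0. Fbl, which encodes fibrillarin, the methyltransferase of box C/D small nucleolar ribonucleoproteins, stood at 8.63 and 8.12 in the controls and 5.98 and 5.94 after knock-down. It fell by 2.41 ± 0.25 (log2, SE), or 5.32-fold (limma adjusted p = 4.44e-04), and the groups did not overlap. The share of probes well above background, as called by the scanner software, ran from 59.9% to 64.5% over the 4 arrays, and no spot was saturated. The number of arrays limits the precision of every value below. The 12 ES cell markers examined, among them Pou5f1 and Nanog, were well above background on all 4 arrays, and Tfcp2l1 was the 1 of them called, having fallen by 0.95. With Tfcp2l1 counted, 7 of the 12 had both knock-down samples below both controls, against 30.9% of all genes with a symbol. For 2, Klf4 and Sox2, both knock-down samples lay above both controls, against 21.8%. Nanog at −0.82 (limma adjusted p = 0.0605), Lin28a at −0.62 and Zfp42 at −0.61 were lower without passing the test, while Pou5f1 overlapped at −0.06. The summed linear level of the 12 markers ran from 912 to 1102 in the controls and from 910 to 1182 after knock-down. That sum is mostly the brightest marker, Dppa5a, at 9.44 and 9.02 in the controls and 9.20 and 9.74 after knock-down. It therefore does not show that the marker set was unchanged. The part of these marker shifts in the proteasome values was not tested. The controls stood apart from each other: the SD of the difference between them over all tested probes was 0.51, against 0.31 between the knock-down samples. Control 2 lay below control 1 for 15008 of the 25078 probes tested, with a median gap of 0.38 in either direction.

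No proteasome gene rose or fell. Of the 65 member probes tested, which represent 47 genes, 0 passed an adjusted p of 0.05 by limma, against 6.20% of all 25078 tested probes, of which 3.73% rose and 2.47% fell. At an unadjusted p under 0.05, 3 member probes were higher and 7 lower; over all probes those shares were 9.47% higher and 10.6% lower. Each of the 65 probes was well above background on all 4 arrays. The dimmer ones still depended on the background treatment. With normexp background correction the dimmer Psmf1 probe changed by 0.36 instead of 0.86, and Psmb8 by 0.14 instead of −0.06. The smallest change called among all probes was 0.86 in size, and the largest among the members was also 0.86, at Psmf1. The SE of a member's change lay between 0.22 and 0.28, and no smaller change than 0.86 was called at any probe. The calls changed when 1 control was left out. Such a fit takes its spread from the knock-down pair alone, which lay closer together (SD of the difference 0.31 against 0.51). Its counts therefore hold no spread between controls and cannot show that a call depends on either control. Without control 1, 3 member probes rose (Psmb9 and both of Psmf1) and 3 fell (Psmc6 and 2 of Psmd12), while 21.5% of all probes were called. Without control 2, 2 rose (both of Psmf1) and 1 fell (Psma2), while 12.9% of all probes were called. An exact test by permuting the 2 against 2 samples cannot give a two-sided p below 0.333. The remaining member, the thymus-specific catalytic subunit Psmb11, was well above background on none of the 4 arrays by either of its 2 probes and was not tested.

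Below the threshold the members leaned one way. By probe, 47 of 65 had a change below 0, against 55.9% of all probes. Both knock-down samples lay below both controls at 31 of the 65, against 30.6% of all probes, and above both at 4, against 20.8%. With each gene read from its probe of the highest mean level, 36 of 47 genes had a mean below the control mean, against 55.6% of the 12815 genes with a symbol. Both knock-down samples lay below both controls for 25 genes, above both for 3, and overlapped them for 19; over all genes with a symbol the shares were 30.9% below and 21.8% above. The median change was −0.20 over the member genes and −0.06 over all tested probes. Lower levels from fewer cells of a type and from less RNA per cell cannot be told apart in these bulk samples. Of the 16 genes with several tested probes, 3 had probes that differed in sign: Psmb8, Psme2 and Psme4.

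**Figure D1:**
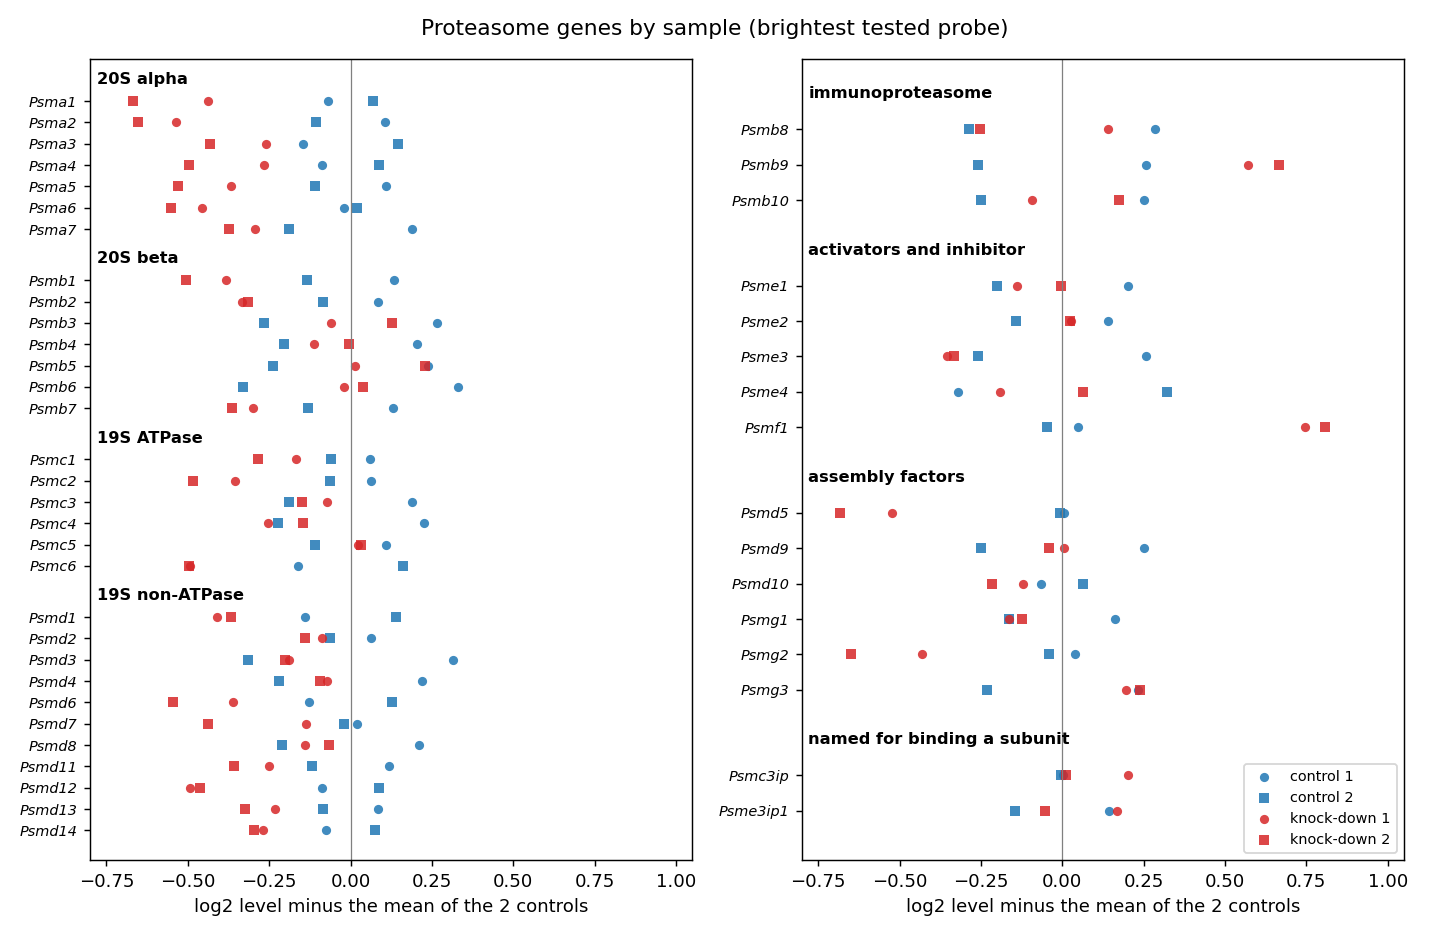
Level of each proteasome gene in the 4 samples, as log2 relative to the mean of the 2 controls, grouped by class and read from the gene's brightest tested probe; each row is a gene and each point a sample. The alpha subunits are below the control mean in both knock-down samples, while most beta subunits differ more between the 2 controls than between the groups.

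The alpha subunits of the 20S core all leaned the same way. All 7 had both knock-down samples below both controls, against 30.9% of all genes with a symbol. Their changes ran from −0.59 to −0.33 with a median of −0.45. Psma2, an alpha subunit at the gate of the core, stood at 7.68 and 7.46 in the controls and 7.04 and 6.92 after knock-down, a change of −0.59 ± 0.23 (limma adjusted p = 0.176). Its groups were apart by more than the gap within either, yet the adjusted p missed the threshold. Psma1, next in size, stood at 5.54 and 5.68 against 5.17 and 4.94, a change of −0.55 ± 0.23 (limma adjusted p = 0.210). Psma6 had the closest replicates of the class, 6.10 and 6.14 against 5.67 and 5.57, a change of −0.50 ± 0.22 (limma adjusted p = 0.241). Psma5, at 7.79 and 7.57 against 7.31 and 7.15, changed by −0.45. These 4 genes had the largest shifts of the class, and in each the lower control was above the higher knock-down value.

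The other alpha subunits had smaller shifts of the same sign. Psma4 stood at 4.61 and 4.78 in the controls and 4.43 and 4.20 after knock-down by its brighter probe, and its other probe gave a change of −0.51 against −0.38. Psma3, at 4.56 and 4.86 against 4.45 and 4.28, changed by −0.35 with only a narrow space between the groups. Psma7, the smallest of the class at −0.33 ± 0.24 (limma adjusted p = 0.491), stood at 7.33 and 6.96 in the controls and 6.85 and 6.77 after knock-down. It was −0.14 without control 1 and −0.52 without control 2. Control 2 lay below control 1 for 3 of the 7 alpha genes, so the gap between the controls had no common direction in this class. With either knock-down sample or either control left out in turn, the class median lay between −0.53 and −0.37.

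The 7 constitutive beta subunits were divided. Psmb1, Psmb2 and Psmb7 had both knock-down samples below both controls, while Psmb3, Psmb4, Psmb5 and Psmb6 overlapped. Over all genes with a symbol, 30.9% had both knock-down samples below both controls. Psmb1, a structural beta subunit, stood at 6.18 and 5.91 in the controls and 5.66 and 5.54 after knock-down, a change of −0.44 ± 0.23 (limma adjusted p = 0.321). Psmb2, also structural, stood at 3.18 and 3.01 against 2.77 and 2.78, a change of −0.32. Both genes were lower in each knock-down sample, by amounts that did not pass the test.

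Of the 3 catalytic subunits, Psmb7 was lower in both knock-down samples, while Psmb5 and Psmb6 overlapped the controls and had no clear direction. Psmb7, which carries the trypsin-like activity, stood at 5.28 and 5.02 in the controls and 4.85 and 4.79 after knock-down, a change of −0.33 ± 0.23 (limma adjusted p = 0.474). Psmb5, which carries the chymotrypsin-like activity, stood at 6.74 and 6.26 against 6.51 and 6.73, a change of 0.12 ± 0.25 (limma adjusted p = 0.846). Psmb6, which carries the caspase-like activity, stood at 7.75 and 7.09 against 7.40 and 7.46, a change of 0.01 ± 0.27 (limma adjusted p = 0.988). For Psmb5 and Psmb6 the knock-down values lay between the controls, and an SE of this size leaves room for a change in either direction. The structural subunits Psmb3, at 7.88 and 7.35 against 7.56 and 7.74, and Psmb4, at 7.56 and 7.15 against 7.24 and 7.35, showed the same arrangement.

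Control 2 lay below control 1 for all 7 beta genes, with a median gap of 0.41, against 0.21 for the alpha genes and 0.38 over all probes. The beta median of −0.06 therefore depended on which control was used: it was 0.15 without control 1 and −0.32 without control 2. Within the slide that held both controls and knock-down 1, the beta median was −0.11 and the alpha median −0.37. Of the whole 20S core of 14 genes, 11 were below the control mean and 10 had groups that did not overlap, all of them lower. Over all genes with a symbol the shares were 55.6% and 30.9%. The median change of the core was −0.34.

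**Figure D2:**
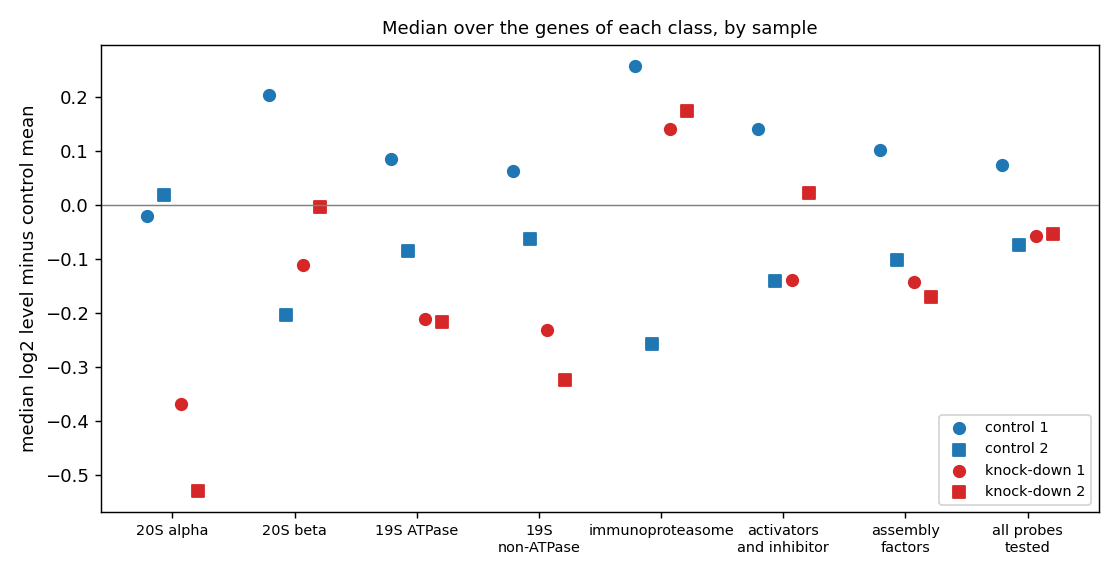
Median level of each proteasome class in the 4 samples, as log2 relative to the mean of the 2 controls; each point is the median over the genes of the class in 1 sample. The alpha medians sit at −0.37 and −0.53 in the knock-down samples and within 0.02 of 0 in the controls. Control gaps of opposite sign cancel in the alpha median. The beta subunits and the immunoproteasome have control medians on either side of both knock-down values.

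The 19S particle was mostly below the controls. Of its 17 genes, 16 were below the control mean, 11 had both knock-down samples below both controls, none had them above, and the median change was −0.28. Over all genes with a symbol 55.6% were below the control mean and 30.9% had both knock-down samples below both controls. Control 1 carried part of this: without it 11 of the 17 were below, and Psmc3 (0.08), Psmc4 (0.02), Psmd3 (0.12), Psmd4 (0.14) and Psmd8 (0.11) turned above the control, beside Psmc5. Without control 2 all 17 were below. The sample medians relative to the control mean were 0.06 and −0.06 in the controls and −0.23 and −0.30 after knock-down. Quantile normalization moved the 19S median to −0.19.

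Among the 6 ATPases, 3 had groups that did not overlap: Psmc1, Psmc2 and Psmc6, all lower, against 30.9% of all genes with a symbol. Psmc6 stood at 5.11 and 5.43 in the controls and at 4.77 in both knock-down samples, a change of −0.49 ± 0.23 (limma adjusted p = 0.271). Psmc2 stood at 6.31 and 6.19 against 5.89 and 5.76, a change of −0.42, and Psmc1 at 5.55 and 5.43 against 5.32 and 5.20, a change of −0.23. At the other end Psmc5 stood at 5.10 and 4.89 against 5.02 and 5.03, a change of 0.03 ± 0.23 (limma adjusted p = 0.966), with overlapping groups. Psmc3 (−0.11) and Psmc4 (−0.20) also overlapped.

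All 11 non-ATPase subunits were below the control mean, from −0.48 to −0.08, and 8 had groups that did not overlap, against 30.9% of all genes with both knock-down samples lower. Without control 1, 8 of the 11 were below. Psmd12, a lid subunit, stood at 6.19 and 6.36 in the controls and 5.78 and 5.81 after knock-down, a change of −0.48 ± 0.22 (limma adjusted p = 0.271), and its 3 probes ran from −0.51 to −0.24. Psmd6, also of the lid, stood at 4.39 and 4.64 against 4.15 and 3.97, a change of −0.45. Psmd1, the large base subunit that docks ubiquitin receptors, stood at 3.66 and 3.94 against 3.39 and 3.43, a change of −0.39. Each of these 3 genes had control 2 above control 1, the reverse of the beta subunits. Psmd14, the deubiquitinase of the lid that cuts off the ubiquitin chain, stood at 5.32 and 5.46 against 5.12 and 5.10, a change of −0.28. Its groups did not overlap by that probe, but they did by its other probe, at −0.18.

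The smallest shifts of the non-ATPase subunits were at Psmd4, Psmd8 and Psmd2. Psmd4, a ubiquitin receptor, stood at 6.04 and 5.61 in the controls and 5.75 and 5.73 after knock-down, a change of −0.08 ± 0.24 (limma adjusted p = 0.897). Psmd3, a lid subunit with one of the widest control gaps among the members, stood at 8.32 and 7.69 against 7.82 and 7.80. For Psmd3, Psmd4 and Psmd8 the knock-down values lay between the controls. The remaining subunits Psmd7, Psmd11 and Psmd13 had changes between −0.31 and −0.28, and in all 3 both knock-down samples were lower than both controls. The other probe of Psmd7 gave −0.44, and that of Psmd2 gave −0.23 against −0.11.

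**Figure D3:**
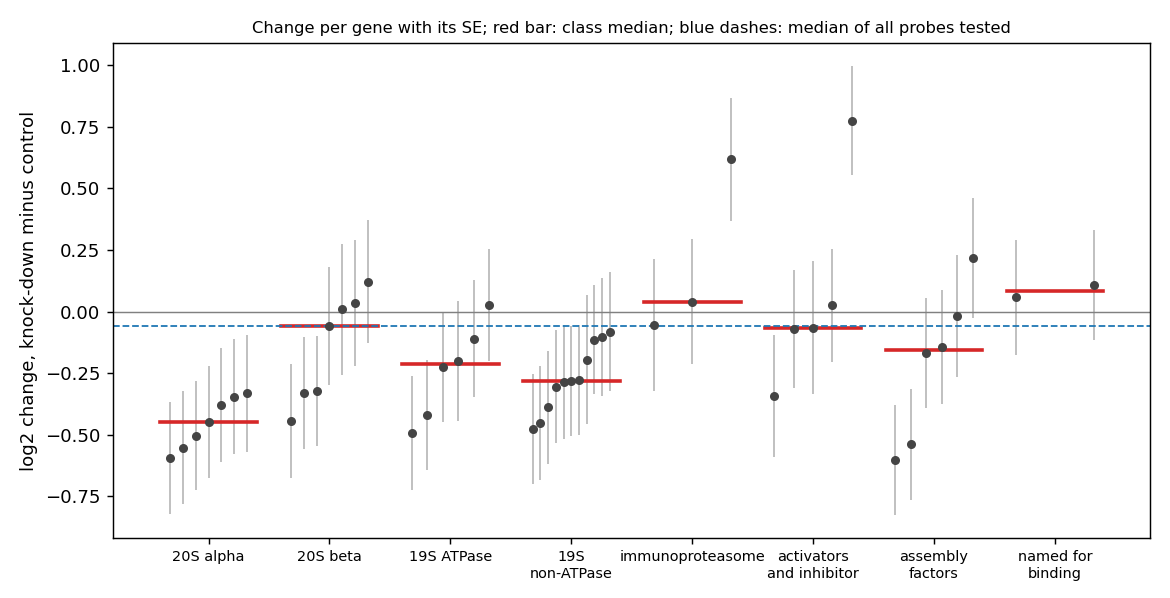
Change of each proteasome gene (log2, knock-down minus control) by class, with its SE from the limma fit as an error bar; the red bar is the class median and the blue dashed line the median of all tested probes. The alpha subunits and the 19S non-ATPase subunits are all below 0, the beta subunits divide into a lower set and a set near 0, and Psmf1 and Psmb9 are the highest members.

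The promoters of the 20S and 19S genes were compared in the RefSeq sequence of GRCm38.p6, in windows from 250 bases before to 50 bases after each annotated start, with 9 motifs searched on both strands. Of the members, 41 genes had a window. The CCGGAAG letters, the core of sites for ETS-family factors, were present in 9 of 14 19S genes with a window but in 1 of 11 20S genes. They were not particular to the 19S genes. They were also in 2 of 5 activator and inhibitor genes, 2 of 5 assembly factors and 2 of 2 genes named for binding a subunit. Of the immunoproteasome genes, 0 of 3 had them. By window the share was 17 of 45 for the members (37.8%), against 8.86% of all 32851 windows. The stretches around the core are shown because, of the 9 motifs, this one differed most between the particles; it was picked after the counts were seen. The core is in capitals, with 10 bases on either side, read 5′ to 3′ on the strand that spells it, which is named in brackets with the position.

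Psmc1 (chr12:100110164-100110190, minus strand): atcgccaccgCCGGAAGtgcatccacc
Psmc2 (chr5:21786713-21786739, minus strand): ctcttccccaCCGGAAGtagctccgcg
Psmc6 (chr14:45329714-45329740, plus strand): ggcgggccagCCGGAAGgggcggagcc
Psmd2 (chr16:20651616-20651642, minus strand): gtcctccagaCCGGAAGcgccctgcgg
Psmd4 (chr3:95042723-95042749, minus strand): tacagctgttCCGGAAGctgctgcgaa
Psmd6 (chr14:14120974-14121000, minus strand): agagacgcgaCCGGAAGtcagactggc
Psmd11 (chr11:80428594-80428620, minus strand): aaacacacacCCGGAAGacccgccctc
Psmd12 (chr11:107479501-107479527, minus strand): gtcactcgcaCCGGAAGtcgcccgctc
Psmd13 (chr7:140882378-140882404, plus strand): gcccgcggtgCCGGAAGtgagcgagca
Psma6 (chr12:55398683-55398709, plus strand): gagccaccacCCGGAAGcccgcggacc

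The windows of the 19S and 20S genes held 13 cores in 10 genes, of which 1 per gene is printed. Psma6 had 3, which began at −132 (printed), −2 and 18 counted from the annotated start. Psmc2 had 2 in separate windows, at −24 (printed) and −84, each counted from a different annotated start. The cores of the other genes began between −125, in Psmd4, and −6, in Psmd13. In Psmc6 the core is followed directly by GGGCGG. The list holds genes with some of the larger 19S shifts, Psmc6, Psmd12 and Psmd6, and genes with some of the smallest, Psmd4 and Psmd2. The other motifs differed less. GGGCGG, the core letters of a GC box, was in 10 of 14 19S genes and 5 of 11 20S genes, against 35.7% of all windows. CCAAT was in 4 of 14 19S genes and 6 of 11 20S genes (5 of 7 alpha and 1 of 4 beta), against 37.4% of all windows. TGACNNNGC, the letters of the antioxidant response element through which Nfe2l1 and Nfe2l2 act, was in 2 of 14 19S genes and 2 of 11 20S genes, against 12.4% of all windows. The remaining 5 motifs were each in at most 7 of the 45 member windows. The core of the interferon-stimulated response element was in 8.89% of them, against 3.44% of all windows. TTCNNNGAA was in 6.67% against 8.30%, and TGACGTCA in 0% against 1.79%. The core of the NRF1 palindrome was in 15.6% against 6.22%, and the p53 half-site in 2.22% against 8.36%. Matches of different motifs were allowed to overlap. A match is a description of the letters and does not show that a factor binds.

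The immunoproteasome had 1 gene above the controls and 2 that overlapped them. Psmb9, the replacement for Psmb6, stood at −0.08 and −0.60 in the controls and 0.23 and 0.32 after knock-down. Both knock-down values lay above both controls, a change of 0.62 ± 0.25 or 1.53-fold (limma adjusted p = 0.199), which did not pass the test. Within the shared slide the change was 0.57, without control 2 it was 0.36, and without control 1 it was 0.88 and passed the test. Psmb10, the replacement for Psmb7, stood at 4.97 and 4.47 against 4.62 and 4.89, a change of 0.04 ± 0.25 (limma adjusted p = 0.954). Psmb8, the replacement for Psmb5, stood at −4.13 and −4.70 against −4.27 and −4.66, a change of −0.06 ± 0.27 (limma adjusted p = 0.941), and its other probe gave 0.14. Psmb8 and Psmb10 overlapped between the groups, and Psmb8 was far down each array while still well above background. The median of the 3 genes was 0.04, and it turned on the controls: 0.29 without control 1 and −0.21 without control 2.

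Psmb9 shares a promoter region with Tap1, which encodes a subunit of the peptide transporter that carries proteasome products into the endoplasmic reticulum. In the RefSeq annotation of GRCm38.p6 Psmb9 lies on the minus strand at chr17:34182030-34187330 and Tap1 on the plus strand at chr17:34187556-34197225, with their starts facing away from each other. Psmb8 (chr17:34198195-34201454) and Tap2 (chr17:34204479-34216321), the other transporter subunit, follow in the same cluster. The 225 bases between the starts of Psmb9 and Tap1 (chr17:34187331-34187555, plus strand) are shown because the pair shares them. The capitals mark the matches of the 9 motifs in this stretch: CCAAT at bases 4 to 8, and CCGCCC at bases 50 to 55, which is GGGCGG on the other strand.

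Psmb9-Tap1: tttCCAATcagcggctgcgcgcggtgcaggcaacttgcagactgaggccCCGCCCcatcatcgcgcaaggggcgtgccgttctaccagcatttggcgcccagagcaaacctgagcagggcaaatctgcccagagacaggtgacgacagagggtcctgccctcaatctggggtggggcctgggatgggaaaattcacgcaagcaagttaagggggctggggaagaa

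Of the 2 genes beside this region, Tap1 was called and Psmb9 was not. The difference between them was not tested. Tap1 stood at −3.29 and −3.74 in the controls and −0.82 and −0.75 after knock-down, and it rose by 2.74 ± 0.24, or 6.66-fold (limma adjusted p = 2.47e-04). The size of the Tap1 change depended on the processing and ran from 1.615 to 2.961 over the alternatives. Tap2 stood at −4.94 and −5.38 against −4.32 and −3.94 and rose by 1.03 ± 0.26 (limma adjusted p = 0.0428). The Tap2 call was lost within the shared slide (0.84), with normexp background correction (0.41), with either trended variance prior, and without control 2 or knock-down 1. Tap1 kept its call under all of these. Without a filter on dim probes no probe on the array was called, Tap1 and Fbl included. Of the 10 antigen-processing genes measured from a list of 12, Tap1 and Tap2 were the 2 that rose and 0 fell; over all genes with a symbol 4.35% rose and 2.35% fell. The list was drawn up with earlier results of these data known. The class I heavy chain H2-K1 changed by −0.61, its light chain B2m by −0.61, and the interferon-pathway factor Irf1 by 0.15, none of which passed the test. Blood cells use the immunoproteasome at rest. Of 8 blood markers, 6 were well above background on all 4 arrays and were tested, and 0 were called. Of these, 2 (Cd3e and Cd74) had both knock-down samples below both controls, and 1 (Laptm5, at 0.51) had them above. Over all genes with a symbol the shares were 30.9% and 21.8%. Ptprc and Itgam were well above background on no array. The summed level of the list, set mostly by its brightest genes Coro1a and Laptm5, was 6.13 and 4.24 in the controls and 5.83 and 6.44 after knock-down.

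The activators of the 20S core and its inhibitor were mixed. Psmf1, which encodes PI31, a protein that binds the core and inhibits it in vitro, had the largest change among the members and came nearest to the threshold. Its brighter probe stood at −1.11 and −1.21 in the controls and −0.42 and −0.36 after knock-down, a change of 0.78 ± 0.22 or 1.71-fold (limma adjusted p = 0.0727). Its other probe stood at −4.92 and −5.03 against −4.10 and −4.13, a change of 0.86 ± 0.22 (limma adjusted p = 0.0505). In both probes the replicates were close and the groups far apart. The call depended on the processing: at least 1 Psmf1 probe passed under quantile normalization, with the percentile taken over bright probes, under the filter for signal on all 4 arrays, under both trended variance priors, and without either control. With normexp background correction the changes were 0.58 and 0.36. Within the shared slide they were 0.75 and 0.87, and neither was called.

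Psme3, the nuclear PA28 gamma activator, stood at 3.12 and 2.61 in the controls and 2.51 and 2.53 after knock-down, a change of −0.34 ± 0.25 (limma adjusted p = 0.501). Its knock-down values were only just below the lower control, and the change was −0.085 without control 1 and −0.60 without control 2. Psme1 and Psme2, the interferon-responsive PA28 alpha and beta, changed by −0.07 and 0.02 with overlapping groups. The Psme2 value is uncertain, since the near-identical copy Psme2b may bind the same probes. Pseudogene copies of Psma5, Psmb5, Psmb6 and Psmb7 leave the same doubt for those genes. Psme4, the PA200 activator, stood at 4.63 and 5.27 against 4.76 and 5.01, a change of −0.07, with its 3 probes between −0.07 and 0.14.

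The assembly factors were also mostly below the controls. Of 6 genes, 5 were below the control mean and 3 had groups that did not overlap, with a median change of −0.16; all 3 were lower, and over all genes the shares were 55.6% and 30.9%. Psmd5, a chaperone of the 19S base, stood at 4.06 and 4.04 in the controls and 3.52 and 3.36 after knock-down, a change of −0.60 ± 0.22, or 1.52-fold (limma adjusted p = 0.161). It had the lowest change of all member genes, and with normexp background correction it passed the test at −0.72. Psmg2, which pairs with Psmg1 in building the alpha ring, stood at 3.85 and 3.77 against 3.38 and 3.16, a change of −0.54 ± 0.23 (limma adjusted p = 0.216), and its other probe gave −0.56. Its partner Psmg1 stood at 4.51 and 4.18 against 4.18 and 4.22, a change of −0.14 with overlapping groups.

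The 19S base chaperones Psmd9 and Psmd10 changed by −0.02 and −0.17. Psmg3, the other alpha-ring chaperone measured, stood at 4.52 and 4.05 in the controls and 4.48 and 4.52 after knock-down, a change of 0.22 ± 0.24 (limma adjusted p = 0.689), and its groups overlapped. Psmc3ip and Psme3ip1, named for binding a subunit, changed by 0.11 and 0.06. Psmc3ip was the third gene, beside Psmf1 and Psmb9, with both knock-down values above both controls, in its case by a narrow margin.

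**Figure D4:**
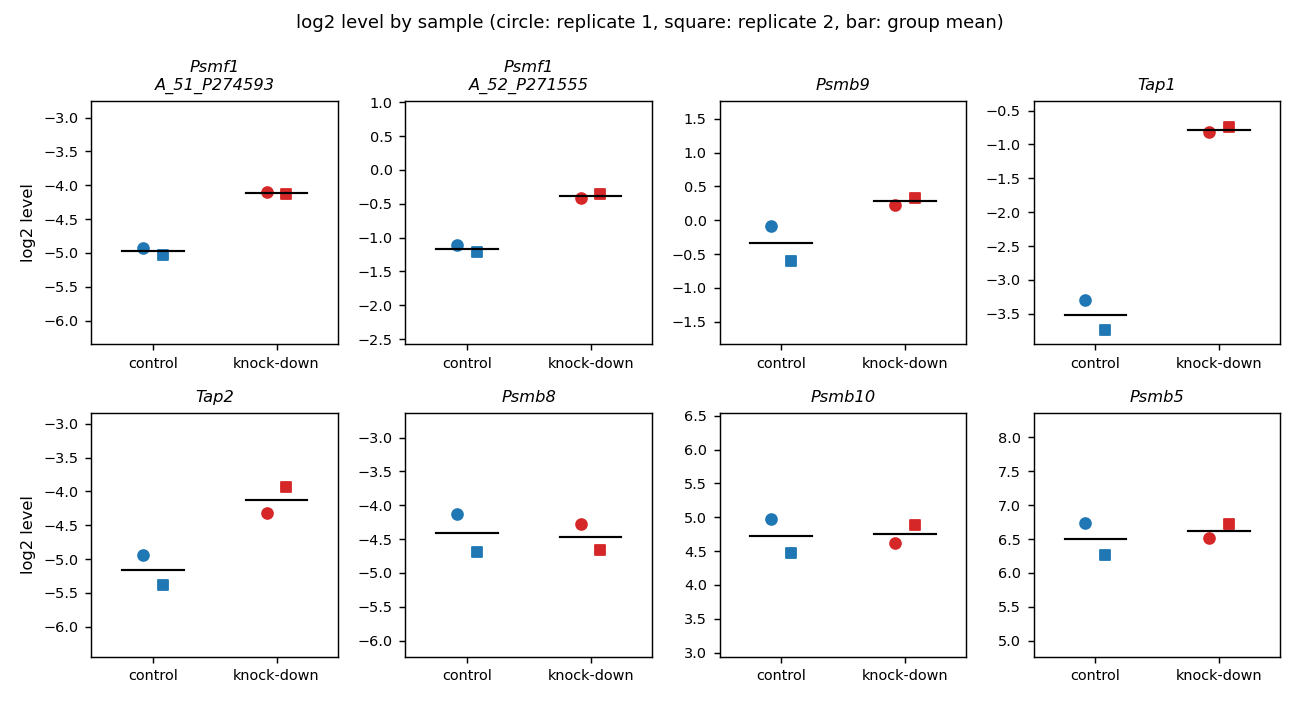
Level (log2 signal, 0 at the array's 75th percentile) of proteasome genes and of Tap1 and Tap2 in the 4 samples, 1 panel per probe, with control and knock-down points and a bar at each group mean. Psmf1, Psmb9, Tap1 and Tap2 are higher in both knock-down samples, and only Tap1 and Tap2 passed the test.

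The wider ubiquitin-proteasome machinery was read from a list of 33 genes outside the symbol rule, of which 30 were measured. None of the 30 was called by limma, 3 were lower and 0 higher at an unadjusted p under 0.05; over all genes with a symbol 9.90% were lower and 10.2% higher. Their median change was −0.23, with 16 genes lower in both knock-down samples, against 30.9% of all genes. Pomp, the maturation factor of the 20S core, stood at 7.64 and 7.28 in the controls and 7.17 and 7.05 after knock-down, a change of −0.35 ± 0.24 (limma adjusted p = 0.459). Nfe2l1, the transcription factor that raises proteasome genes when the proteasome is inhibited, changed by −0.25, and Nfe2l2, the antioxidant-response factor, by −0.60 ± 0.24 (limma adjusted p = 0.201). Adrm1, a ubiquitin receptor of the 19S base, changed by 0.03 with overlapping groups.

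Set side by side, the sample medians relative to the control mean differed between classes in how far apart the control medians lay. The alpha subunits were at −0.02 and 0.02 in the controls and −0.37 and −0.53 after knock-down. Their control medians near 0 do not show that the controls were alike, because gaps of opposite sign cancel. The alpha genes had a median gap of 0.21 between the controls, with control 2 lower for 3 of the 7. The beta subunits were at 0.20 and −0.20 against −0.11 and −0.0045, and the immunoproteasome at 0.26 and −0.26 against 0.14 and 0.17. The 20S core as a whole, at 0.12 and −0.12 against −0.30 and −0.40, and the 19S particle, at 0.06 and −0.06 against −0.23 and −0.30, both had knock-down medians below both controls. No difference between classes was tested.

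Markers of other cell types were read in the same way, against 4.35% of all genes that rose and 2.35% that fell. Of 10 fibroblast markers 5 were tested and 0 were called, and Col3a1, Dcn, Pdgfra and Postn were well above background on no array. The primitive endoderm list had 7 tested genes, of which Sox7 fell, and the trophectoderm list 7, of which Krt7 rose and Elf5 fell. In the testis germ cell list 0 of 5 were called. Their part in the proteasome values was not tested.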

How the data were processed

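Total RNA of 4 samples was hybridised to 1-colour Agilent arrays and read with Feature Extraction 10.7.3.1, per the submitters' processing notes. The deposited series table holds the authors' log2 values by probe, whose scale was found by setting them against the scanner files: 99.8% of values on each array lay within 0.01 of log2 signal minus a constant. The deposited scanner files hold each spot's background-subtracted intensity (processed signal), per the file headers, and supplied the well-above-background calls. Probes were named through RefSeq accessions: 24350 of 41124 had 1 symbol and 16774 none.

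The 25078 probes that the scanner called well above background in both replicates of the control, the knock-down or both were fitted with limma 3.58.1 (R 4.3.3), two-sided, with Benjamini-Hochberg adjustment over all of them and a threshold of 0.05. A change is the mean of the knock-down minus that of the control samples, and the fit was tested on simulated data. A gene was read from its tested probe of the highest mean level. The members and gene lists were chosen with earlier results of these data known. Genes described singly were the catalytic, activating, inhibiting and assembly members and the extremes of each class; other members were added after their values were seen. The alternatives covered starting values, background correction, normalization, filter, variance prior, probe choice, replicate and slide blocks, and each sample left out. Normexp used the median spot signal, a choice made after seeing the files. Promoters and gene positions are from RefSeq on GRCm38.p6; probe positions were not used here.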

Additional observations from a re-analysis of the deposited data

How the results depend on the processing

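Limits come from 2 arrays a group and from the controls, which differed more than the knock-down samples did. Leaving out 1 control changed most counts, and the spread in such a fit came from the knock-down pair alone. Under 16 alternatives, 481 of 543 values of the 34 named probes kept their direction and their side of the threshold, as did 324 of 336 for the 21 other member genes. The cause of the changes below was not tested. Over all probes, 936 rose and 620 fell. Without the filter on dim probes 0 rose and 0 fell by limma (3878 probes had an unadjusted p under 0.05). With the trended and robust prior 1457 rose and 1195 fell, with the trended prior 1006 fell, and with quantile normalization 408 fell. With each sample left out, 462 to 3020 rose and 224 to 2378 fell, and the slide block, which leaves the fit within 1 slide, gave 462 and 224. The replicate block gave 1274 and 1012, and 1 proteasome probe (Psmf1) that rose; the numbers share no more than a name, and same-numbered samples deviated together with a correlation of only 0.02. Of the proteasome probes, 1 (Psmf1) rose with quantile normalization, the bright-probe percentile or either trended prior, 2 (both Psmf1) rose with signal required on all arrays, and 1 (Psmd5) fell with normexp. With samples left out, 0 to 3 rose and 0 to 3 fell. The 19S median was −0.19 with quantile normalization and −0.31 to −0.19 with samples left out; the beta median ran from −0.32 to 0.15. Several fits (normexp, both blocks, without either knock-down sample) had an infinite prior, so all probes shared 1 variance. The immunoproteasome median ran from −0.21 to 0.29. Of the 21 other members, 7 changed sign in at least 1 setting, in 12 values: without control 1 Psmb4 (0.15), Psmc3 (0.079), Psmc4 (0.024), Psmd3 (0.12) and Psmd8 (0.11), with quantile normalization Psmb4 (0.033), Psmc3 (0.0031) and Psmd2 (0.0049), and Psmb3 with normexp (−0.0048), within the shared slide and so without knock-down 2 (−0.059), and without control 2 (−0.23). Among the named probes the following changed sign. Normexp gave Psmb8 0.14, Psmc5 −0.080, Psme2 −0.060 and Psme3ip1 −0.058. Quantile normalization gave Psmd4 0.032, Psmd9 0.031 and Psme4 0.018, and the bright-probe percentile gave Psmd9 0.034. The mean over probes gave Psmb8 0.043, Psme4 0.013 and Adrm1 −0.054. The slide block gave Psmb10 −0.093, Psmb6 −0.021, Psmb8 0.14 and Psmd9 0.0066. With samples left out, the ranges were −0.21 to 0.26 for Adrm1, −0.21 to 0.29 for Psmb10, −0.12 to 0.36 for Psmb5, −0.32 to 0.34 for Psmb6, −0.34 to 0.23 for Psmb8, −0.081 to 0.14 for Psmc5, −0.30 to 0.14 for Psmd4 and −0.27 to 0.23 for Psmd9. They were −0.27 to 0.13 for Psme1, −0.12 to 0.17 for Psme2, −0.088 to 0.20 for Psme3ip1, −0.39 to 0.26 for Psme4, −0.31 to 0.019 for Psmg1 and −0.014 to 0.45 for Psmg3.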
